A study of Mus musculus with 2 samples.

Results

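Leukocyte microRNAs were followed in heart tissue through 7 genes: Mir142, Mir150, Mir155, Mir223, Mir342, Mir146 (the gene of miR-146a) and Mir146b. They were chosen by their GENCODE M21 symbols as known lymphoid, myeloid and inflammation-induced genes, and are 7 of the 2202 microRNA genes counted. The rule uses no measured value, but it was set with earlier results of these data known. The hearts came from female B6CASTF1/J mice, the hybrid offspring of a C57BL/6J and a CAST/EiJ parent, at an age of 2 months. There was 1 group of 2 libraries from total RNA, with no treatment, no sorting and no contrasting group. By the labels the libraries are biological replicates 1 and 2, taken from differently numbered females that nevertheless share 1 donor label. P-values between them therefore compare only 2 libraries, whose differences may be technical. They depend on the number of counts as well as on the size of a difference.

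A microRNA gene is transcribed as a hairpin that is cut into a duplex, and 1 arm of the duplex is usually kept in an Argonaute protein, where its seed, bases 2 to 8, pairs with target transcripts. The 7 genes are classic microRNAs of blood cells. Mir142 is made throughout the blood lineages, Mir223 mainly in granulocytes and monocytes, and Mir150 in mature lymphocytes, where it represses Myb. Mir342 lies in a gene of actin regulation that is active in white blood cells. Mir155 is induced in activated macrophages and lymphocytes and represses Socs1 and Inpp5d, which dampen cytokine signalling. Mir146 and Mir146b are induced through NF-kappaB, and miR-146 represses its upstream activators Traf6 and Irak1. Mir155 and Mir146 are also known from endothelial cells, so a count from whole heart is not a count of leukocytes alone.

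The mature sequences show which of the genes could be confused with each other or with another locus, which bears on the counts below. They are from RefSeq (build GRCm38.p6, the assembly that mm10 names), in which 1 or more mature arms were found for all 7 genes and a hairpin for 6. The arms below are those known to be loaded and, for miR-142b, the annotated arm, read 5′ to 3′, with the seed in capitals. No arm is shown for Mir150, for which only miR-150-3p was found.
miR-142a-5p: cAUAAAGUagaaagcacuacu
miR-142a-3p: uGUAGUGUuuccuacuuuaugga
miR-142b: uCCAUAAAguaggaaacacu
miR-223-3p: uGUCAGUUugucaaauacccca
miR-342-3p: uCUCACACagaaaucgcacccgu
miR-155-5p: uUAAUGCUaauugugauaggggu
miR-146a-5p: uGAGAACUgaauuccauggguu
miR-146b-5p: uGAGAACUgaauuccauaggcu

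Of the 13 arms of the 7 genes in the table, miR-146a-5p and miR-146b-5p were the only ones to share a seed with another of the 1738 mature microRNAs in the table, namely with each other. They are identical over their first 17 bases and differ at 2 of 22 positions, G18A and U21C, counted from the 5′ end with miR-146a-5p first. Their hairpins share an exact stretch of 21 bases. No hairpin was found for Mir150, so it was not compared in this way. Its seed was compared for miR-150-3p only, so whether its other arm shares a seed was not tested. No stretch over 13 bases was shared between the hairpins of Mir142, Mir155, Mir223 or Mir342 and a hairpin at another locus. Mir142b, a gene annotated on the opposite strand, is shown because its mature arm is the exact reverse complement of bases 4 to 23 of miR-142a-3p. These 13 arms are 21 to 23 bases long, so levels were compared between genes without scaling by length. The counts are per gene and do not tell the arms apart.

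In mm10, Mir142 occupies 87756864 to 87756927 of chromosome 11, in an intron of the transcript Mir142hg, and Mir142b spans it from 87756841 to 87756955 on the other strand. Mir223 (chromosome X, 96242817 to 96242926) falls inside an exon of the transcript F630028O10Rik. Mir155 (chromosome 16, 84714140 to 84714204) falls inside an exon of Mir155hg, its known host transcript. Mir342 (chromosome 12, 108658620 to 108658718) is intronic to Evl, and Mir146b (chromosome 19, 46342762 to 46342870) is intronic to Mfsd13a. Mir150 (chromosome 7, 45121757 to 45121821) and Mir146 (chromosome 11, 43374397 to 43374461) lie between annotated genes. The 7 genes thus stand on 6 chromosomes, and the pair on chromosome 11, Mir142 and Mir146, is far apart.

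Replicate 1 held 2424441 reads on the own strand of microRNA genes and replicate 2 held 2770301, of 8069273 and 7995058 reads in all. Levels are given as CPM, a gene's own-strand count scaled to the sum of these counts in its library. Reads that mapped to several places, 49.5% of all reads in replicate 1 and 42.7% in replicate 2, are not in these counts. Shares and ranks below are therefore among counted reads only, and genes that share sequence with another locus may rank too low. Detection required 10 or more counts in each library, which corresponds to 4.12 CPM in the first and 3.61 CPM in the second. The heart muscle microRNAs Mir208a and Mir499, encoded in myosin genes, were present in both libraries (1542 and 5865 CPM for Mir208a, 4354 and 2641 CPM for Mir499).

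Of the 7 leukocyte genes 6 were detected, against 13.9% of all microRNA genes, and Mir146b was not. Together the 7 genes accounted for 0.797% of own-strand counts in replicate 1 (95% exact Clopper-Pearson interval 0.785 to 0.808) and 0.611% in replicate 2 (0.602 to 0.620), a mean of 0.704% ± 0.131 (SD, n = 2). Intervals here cover counting error only, since they rest on read counts and hold no spread between animals. The reads also carry no molecular identifiers. Mir155 was the highest and ranked 49 of 2202 genes by mean level, followed by Mir150 (rank 55), Mir146 (63), Mir142 (66), Mir342 (70), Mir223 (137) and Mir146b (367). The median of the 306 detected genes was 80.1 CPM, and the first 5 of these genes lay more than 10-fold above it.

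**Figure D1:**
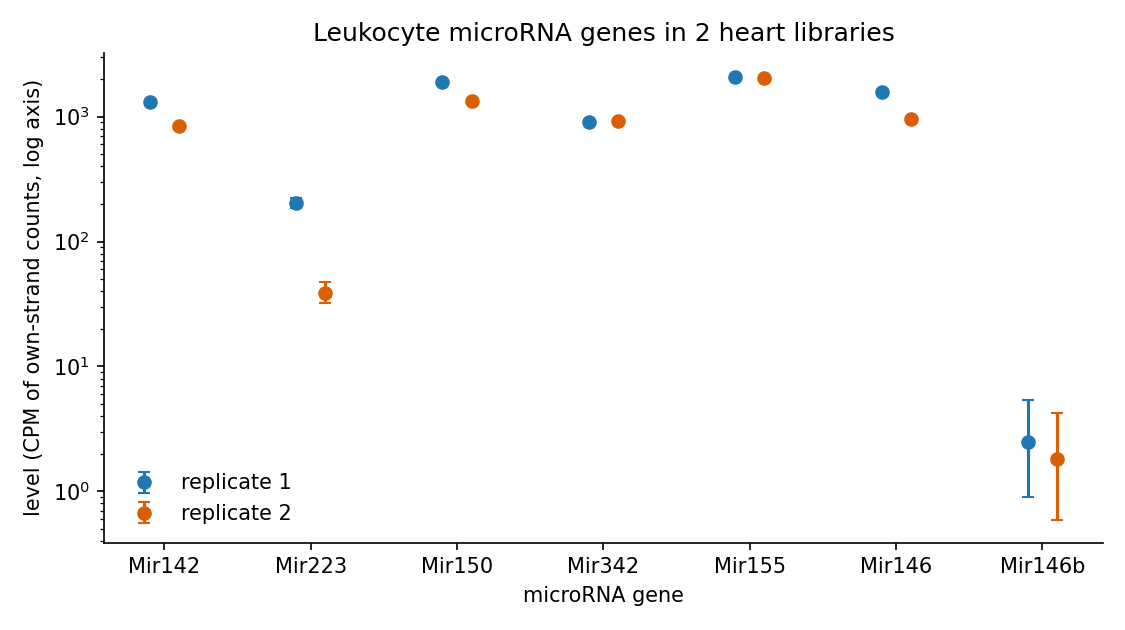
Level of each leukocyte microRNA gene (CPM of own-strand counts, log axis) in replicate 1 (blue) and replicate 2 (orange) of heart. Points are single libraries and bars are 95% exact Poisson intervals of the count. Mir142, Mir150, Mir342, Mir155 and Mir146 sit between 840 and 2088 CPM, Mir223 sits at 205 CPM in the first library and 39.0 CPM in the second, and Mir146b stays below 3 CPM.

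Mir142, the gene shared by all blood lineages, had 3149 counts in replicate 1 and 2327 in replicate 2, or 1299 and 840 CPM (mean 1069 ± 324, SD, n = 2). Every one of these reads rests on strand. In the column that ignores strand both Mir142 and Mir142b had 0 counts in both libraries, because a read over the overlap then belongs to no single gene. On its own strand Mir142b also had 0 counts in both libraries, which allows up to 1.24 CPM in replicate 1 and 1.08 CPM in replicate 2. Its opposite-strand counts were 3149 and 2327, equal to the counts of Mir142. All reads over this pair of genes thus ran in the direction of Mir142.

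Mir223, the myeloid gene, had 496 counts in replicate 1 and 108 in replicate 2. Its levels were 205 CPM (exact Poisson interval 187 to 223) and 39.0 CPM (32.0 to 47.1), with a mean of 122 ± 117 (n = 2). The libraries lay far apart, with rank 118 in replicate 1 and rank 186 in replicate 2. No read was counted on the opposite strand of Mir223, and the column without strand gave the same 496 and 108 counts.

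Mir150, the lymphocyte gene, had 4600 and 3698 counts, or 1897 CPM in replicate 1 and 1335 CPM in replicate 2 (mean 1616 ± 398, n = 2). It was the second highest of the 7 genes in both libraries. Mir342, from the intron of Evl, had 2179 and 2543 counts. Its levels of 899 and 918 CPM (mean 908 ± 13.6) were the closest of the 7 genes in relative terms by library totals, but not with TMM or DESeq2 factors or without erythroid genes in the denominator, where Mir155 was closer.

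Mir155, the gene of activated immune cells, had 5062 and 5615 counts, or 2088 CPM in replicate 1 and 2027 CPM in replicate 2 (mean 2057 ± 43.2, n = 2). It led the 7 genes in both libraries, at rank 47 of all genes in each. Mir146, the NF-kappaB-induced feedback gene, had 3820 and 2637 counts, or 1576 and 952 CPM (mean 1264 ± 441). Its paralog Mir146b had 6 counts in replicate 1 and 5 in replicate 2, or 2.47 CPM (exact Poisson interval 0.908 to 5.39) and 1.80 CPM (0.586 to 4.21). The ratio of Mir146 to Mir146b counts in replicate 1 was thus 637, with an exact interval of 292 to 1736. Replicate 2 gave 527, with an overlapping interval of 226 to 1626. Reads too short to reach G18A cannot tell the miR-146a-5p and miR-146b-5p sequences apart, and a read with several placements entered no gene's count. Whether this lowered either count was not tested.

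The order Mir155, Mir150, Mir146 held in both libraries. Mir155 and Mir150 did not overlap in CPM between the libraries, whereas the CPM ranges of Mir150 and Mir146, of Mir146 and Mir142, and of Mir142 and Mir342 did. Within a library, Mir150 was 1.20 times Mir146 in replicate 1 (1.15 to 1.26, exact) and 1.40 times in replicate 2 (1.33 to 1.47). Mir146 was 1.21 times Mir142 (1.16 to 1.27) and 1.13 times (1.07 to 1.20), so both orders held in both libraries beyond counting error. Mir142 was 1.45 times Mir342 in replicate 1 (1.37 to 1.53, exact) but 0.915 times Mir342 in replicate 2 (0.865 to 0.968), so this pair changed places. In replicate 2, Mir146 and Mir342 did not differ beyond counting error, with a ratio of 1.04 (0.982 to 1.10). Mir223 and Mir146b lay below all others in both libraries.

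The comparison of replicate 2 with replicate 1 asked how far each level carried over from 1 heart library to the other. Mir223 was 5.25-fold lower in replicate 2 (exact interval 4.25 to 6.52), Mir146 1.66-fold lower (1.57 to 1.74), Mir142 1.55-fold lower (1.47 to 1.63) and Mir150 1.42-fold lower (1.36 to 1.48). Mir155 was 1.03-fold lower (0.992 to 1.07) and Mir342 1.02-fold higher (0.964 to 1.08), and neither passed the test. By the two-sided exact binomial test, adjusted over the 306 detected genes after Benjamini and Hochberg, 4 of the 6 detected leukocyte genes differed, against 61.1% of all detected genes. The adjusted p was 1.83e-71 for Mir223, 5.64e-89 for Mir146, 4.06e-57 for Mir142 and 1.27e-56 for Mir150, and it was 0.183 for Mir155 and 0.563 for Mir342.

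All 4 that differed were lower in replicate 2. Of all detected genes 187 differed, and 127 of these were lower (41.5% of all detected genes). At least 1.5-fold lower were 3 of the 4 (Mir223, Mir146 and Mir142), beside 78 of the 127 (25.5% of all detected genes). By library totals the share called, 4 of 6, was near that of all genes, and no test of the list as a whole was made. The test asks only whether 2 libraries differ beyond counting error. An edgeR exact test with the common dispersion of both libraries (a biological coefficient of variation of 0.383) takes the general spread between the libraries as its yardstick. It called none of the 6 genes, and 2 of all 306 (0.654%), which were Mir451a and Mir26a-2, named here after their values were seen. At an unadjusted p of 0.05 it held 1 of the 6, Mir223, for which its p was 0.00497 and its adjusted p 0.217, and 5.56% of all genes. The low level of Mir223 in replicate 2 thus passed the test against counting error and did not pass, after adjustment, the test against the spread between the libraries. Genes that differ enter that spread themselves, so missing this threshold does not show that the levels of Mir223 were alike.

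**Figure D2:**
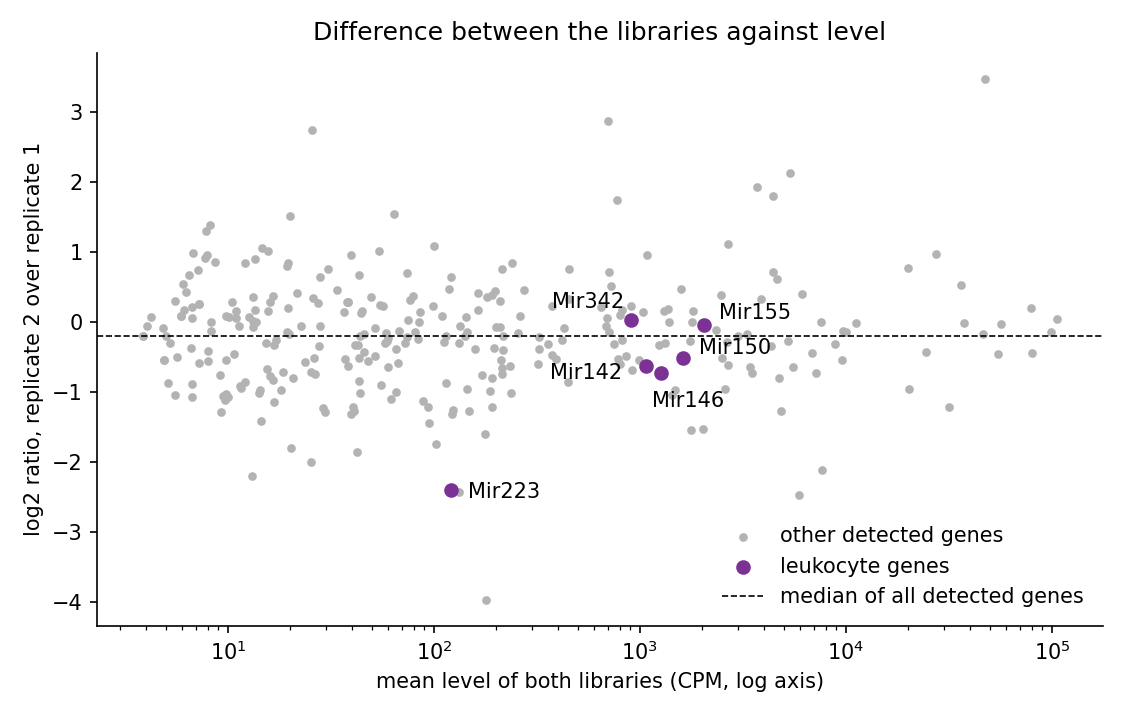
Log2 ratio of replicate 2 over replicate 1 (scaled by library totals) against mean level (CPM, log axis) for the 306 detected genes. Of the leukocyte genes (purple), Mir223 at -2.39 has the fourth lowest ratio of all, and the other 5 lie between -0.73 and 0.03 among other genes (grey). The dashed line is the median of all genes, -0.19.

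The log2 ratio of all detected genes had a median of -0.19 and an SD of 0.83, and TMM and DESeq2 factors raise every log2 ratio by 0.22 and 0.19. Relative to the median gene, the log2 ratio was -2.20 for Mir223, -0.54 for Mir146, -0.44 for Mir142 and -0.32 for Mir150. It was 0.15 for Mir155 and 0.22 for Mir342. Mir223 alone stayed beyond 1.5-fold with either factor set. Mir155, lower by library totals, was higher in replicate 2 by 0.18 on the log2 scale with TMM factors and by 0.15 with DESeq2 factors, and then passed the exact binomial test (adjusted p 1.02e-09 and 3.37e-07). Mir342 passed as well, at 0.25 and 0.22. With either set all 6 genes were thus called, 4 lower and 2 higher, against 59.2% of all detected genes with TMM factors and 59.5% with DESeq2 factors. The median of the 6 moved from -0.57 to -0.35 with TMM factors and -0.38 with DESeq2 factors, beside 0.03 and 0 for all detected genes.

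**Figure D3:**
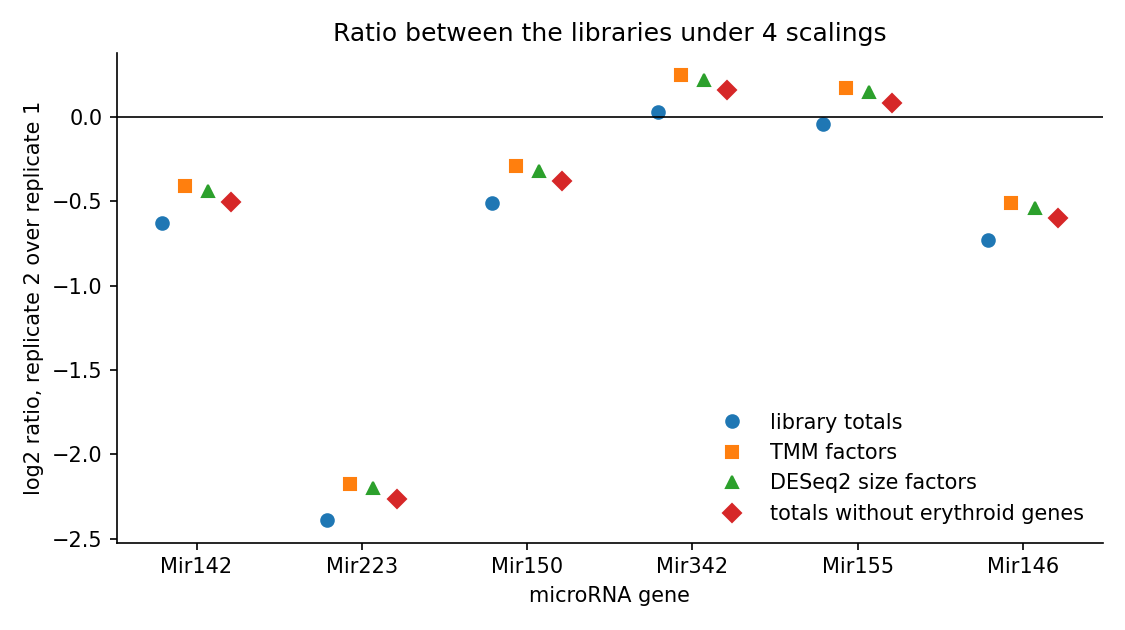
Log2 ratio of replicate 2 over replicate 1 for the 6 detected leukocyte genes under 4 scalings: library totals (circles), TMM factors (squares), DESeq2 size factors (triangles) and totals without erythroid genes (diamonds). Mir223 stays between -2.39 and -2.17 and Mir146, Mir142 and Mir150 stay below 0, whereas Mir155 moves from -0.04 to 0.18 and Mir342 from 0.03 to 0.25.

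Ratios between genes within a library do not depend on the scaling. Of the 15 pairs of detected leukocyte genes, 12 had ratios whose exact intervals in the 2 libraries did not overlap. The same count was not made over all pairs of detected genes, of which 61.1% differed singly by the exact binomial test. Whether 12 of 15 is more than among other genes was thus not tested. The ratio of Mir155 to Mir223 was 10.2 in replicate 1 (9.30 to 11.2, exact) against 52.0 in replicate 2 (43.0 to 63.5). That of Mir150 to Mir223 was 9.27 (8.45 to 10.2) and 34.2 (28.3 to 41.9). In all 5 pairs with Mir223 the ratio of the other gene to it was higher in replicate 2, by 3.17-fold to 5.36-fold. This direction follows from Mir223 having the lowest log2 ratio of the detected leukocyte genes, so the 5 pairs are not separate observations. Among the 10 pairs without Mir223 the ratios in replicate 2 were 0.592 to 1.61 times those in replicate 1. The other 3 pairs had overlapping intervals, namely Mir155 to Mir342 (2.32 and 2.21), Mir150 to Mir142 (1.46 and 1.59) and Mir146 to Mir142 (1.21 and 1.13).

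Within the 7 genes' own counts, Mir155 made up 26.2% in replicate 1 (exact Clopper-Pearson interval 25.6 to 26.8) and 33.2% in replicate 2 (32.5 to 33.9), and Mir342 11.3% and 15.0%. Mir146 made up 19.8% and 15.6%, Mir142 16.3% and 13.7%, and Mir150 23.8% and 21.8%. Mir223 made up 2.57% (2.35 to 2.80) and 0.638% (0.523 to 0.770), and Mir146b 0.0311% and 0.0295%. These shares sum to the whole in each library, so a lower share of some goes with a higher share of others. In whole tissue, fewer cells of a type and less RNA per cell cannot be told apart.

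**Figure D4:**
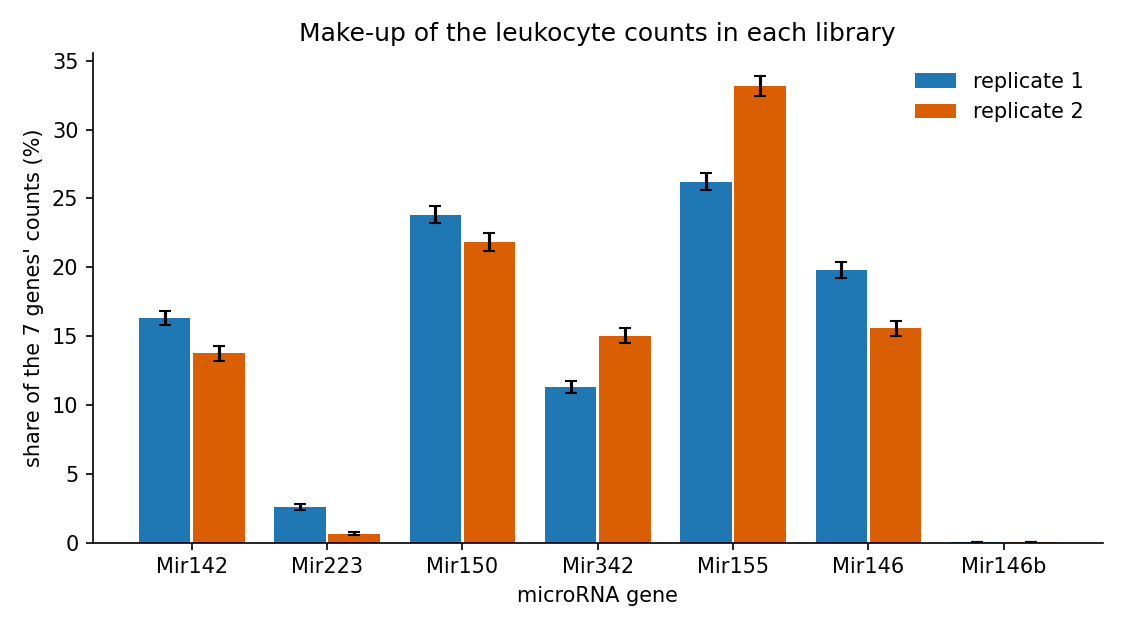
Share of the 7 leukocyte genes' counts (%) taken by each gene in replicate 1 (blue) and replicate 2 (orange), with 95% exact Clopper-Pearson intervals. Mir155 leads in both libraries at 26.2% and 33.2%, and Mir223 holds 2.57% and 0.638%.

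A list of 16 further microRNA genes known from leukocytes or inflammation was counted beside the 7, and 14 were detected. Many of them are also known from other tissues. Their sum was 1.10% of counts in replicate 1 and 0.779% in the other library. By the exact binomial test 10 of the 14 differed, against 61.1% of all detected genes. Of these 10, 3 were higher and 7 lower in replicate 2. Of the 187 detected genes that differed, 60 were higher and 127 lower (19.6% and 41.5% of all detected genes). With either factor set 4 were higher and 5 lower, so no single direction held. Their median log2 ratio of -0.24 lay beside -0.19 for all detected genes.

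Among these, Mir511, from an intron of the macrophage mannose receptor gene Mrc1, had 32 and 17 counts (13.2 and 6.14 CPM). Its difference passed the exact binomial test by library totals, with an adjusted p of 0.0177, but not with TMM factors (0.0733) or DESeq2 factors (0.0540). Mir147, a gene induced through Toll-like receptors, had 4 counts and 1 count and was not detected. Mir132, induced by inflammatory and neuronal signals, stood at 574 and 319 CPM, and Mir212 of the same cluster at 12.8 and 14.4 CPM.

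The miR-181 genes, known for tuning T cell receptor signalling, were led by Mir181d at 681 and 711 CPM, followed by Mir181b-2 (458 and 384 CPM) and Mir181c (434 and 315 CPM). Mir181a-1 (64.3 and 54.9 CPM), Mir181a-2 (64.3 and 137 CPM), Mir181b-1 (6 and 9 counts, not detected) and Mir181b-2 share 26 or 28 bases with a twin gene. Reads from such stretches may map to several places and are then counted for no gene, so these levels are uncertain.

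Mir125a, known from blood stem cells but also widely outside blood, was the highest of the list at 6031 and 3467 CPM. Mir10a stood at 1227 and 1380 CPM, Mir31 at 927 and 647 CPM, Mir196b at 386 and 255 CPM, Mir326 at 68.9 and 89.5 CPM and Mir182 at 4.95 and 7.94 CPM. Mir10a, Mir326 and Mir181a-2 were the genes called higher in replicate 2 by library totals, with Mir181a-2 alone beyond 1.5-fold at 2.13-fold.

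Markers of other cell types also differed between the libraries. The erythroid genes Mir451a, Mir144 and Mir486 summed to 1.15% of counts in replicate 1 and 9.56% in replicate 2. All 3 were higher in replicate 2, with log2 ratios of 3.47, 1.81 and 0.17, against 19.6% of all detected genes called higher. Most of the sum was Mir451a, with 18950 of 27853 counts in replicate 1 and 240538 of 264853 in replicate 2. Mir451a was counted 38.2 times as often as Mir223 in replicate 1 (34.9 to 41.9, exact) but 2227 times as often in replicate 2 (1845 to 2715). Mir451a was thus higher in the library in which Mir223 was lower. Leaving the erythroid genes and Mir3107, which overlaps Mir486, out of the denominator gave Mir223 a log2 ratio of -2.26 in place of -2.39. It gave Mir146 -0.60, Mir150 -0.38 and Mir142 -0.50, the last then under 1.5-fold. Mir155 was then higher in replicate 2, at 0.085, and Mir342 at 0.16, and both passed the exact binomial test (adjusted p 0.00468 and 0.000364). All 6 genes were called with this denominator, against 58.5% of all detected genes. The genes listed for fibroblasts, Mir21a, Mir214 and Mir152, summed to 1.13% and 0.258%, and their cell source in these hearts was not tested. Most of this was Mir21a, with 24289 of 27429 counts in replicate 1 and 5013 of 7150 in replicate 2. All 3 were lower in replicate 2, with log2 ratios of -2.47, -0.68 and -1.31, against 41.5% of all detected genes called lower.

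The cardiac muscle genes Mir208a, Mir208b and Mir499 summed to 0.598% and 0.855%, with Mir208a higher and the other 2 lower. The endothelial genes Mir126a, Mir221 and Mir222 summed to 7.70% and 8.82%, and the smooth muscle genes Mir143 and Mir145a to 5.07% and 4.45%. By library totals Mir126a was higher in replicate 2 (log2 ratio 0.21), and Mir221 (-0.19) and Mir222 (-0.86) were lower. Both smooth muscle genes were lower, at -0.16 for Mir143 and -0.97 for Mir145a. With TMM factors Mir221 and Mir143 were at 0.03 and 0.06. None of these 14 marker genes was at 0 in either library. Apart from the denominator without erythroid genes, the part of these differences in the leukocyte values was not tested.

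For each detected leukocyte gene the most similar other gene was taken as the nearest of 300 by Euclidean distance of log2(CPM + 1) over the 2 libraries. Mir223 was nearest to Mir487b of the imprinted Dlk1-Dio3 cluster (224 and 41.9 CPM, distance 0.16). Mir142 was nearest to Mir455 (1170 and 809 CPM, distance 0.16), and Mir342 to Mir484 (827 and 975 CPM, distance 0.15). Mir150 was nearest to Mir20a (1917 and 1589 CPM, distance 0.25), Mir155 to Mir34a (2431 and 2256 CPM, distance 0.27) and Mir146 to Mir25 (1373 and 1099 CPM, distance 0.29). With 2 libraries this likeness is one of level and of 1 ratio only.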

How the data were processed

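Short RNA reads from 2 heart libraries were counted by the authors for each microRNA gene. The deposited values are raw counts with no normalization, on mm10 with GENCODE M21, per the labels and the text deposited with the tables. Aligner, counter and trimming: not given in the sources used here. Each table holds counts on either, the own and the opposite strand, roles read from the values. The first 4 lines name no gene, held 70.0% and 65.3% of reads in the own-strand column, and were left out of totals.

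The members and lists were chosen with earlier results of these data known. All 2202 gene identifiers matched M21. Own-strand counts were scaled to library totals (CPM). Differences between the libraries were tested with a two-sided exact binomial test over genes with at least 10 counts in both, with Benjamini-Hochberg adjustment at 0.05. edgeR and DESeq2 were used for the alternatives alone. Named genes are the 7 members, the detected genes of the fixed lists, opposite-strand genes and each member's nearest gene. Mir181b-1 and Mir147, which were not detected, and Mir26a-2 and Mir3107 were named beyond this rule.

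The binomial test and the edgeR test were tested on simulated data. Python 3.11.15, numpy 2.4.6, pandas 2.3.3, scipy 1.17.1, matplotlib 3.10.9, R 4.3.3, edgeR 4.0.16 and DESeq2 1.42.0 were used.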

Additional observations from a re-analysis of the deposited data

Results flagged for a closer look

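The opposite-strand column, which no comparison used, held 3149 reads for Mir142b in replicate 1 and 2327 in replicate 2, above the 3 counts that a count of 0 allows. The same numbers were counted on the own strand of Mir142, which overlaps it. Among the 7 leukocyte genes themselves the opposite-strand column held 1 read, for Mir150 in replicate 1.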

How the results depend on the processing

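The number of leukocyte genes that differed between the libraries stayed between 4 and 6 under 7 alternatives, and was 0 with the edgeR exact test, which held 1 at an unadjusted p of 0.05. The share of all tested genes called under these 7 was not constant. It was 26.8% with no count filter, 74.2% at a minimum of 50 counts and 56.0% with reads on either strand. Under the rest of the 7 it ran from 57.9% to 59.5%. The number beyond 1.5-fold, 3 by library totals, was 1 with TMM factors, DESeq2 factors or reads on either strand, 0 with the edgeR exact test, and 2 or 3 otherwise. Among all genes the 34 higher and 78 lower beyond 1.5-fold became 52 and 46 with TMM factors, 48 and 49 with DESeq2 factors. The edgeR test counts genes that differ into its own spread, and called 2 genes in place of 187. Mir155 turned from -0.04 to 0.18 with TMM factors, 0.15 with DESeq2 factors, 0.085 without erythroid genes in the denominator and 0.11 with reads on either strand. Its counts, 5062 and 5615, were the same in each, so only the scaling between the libraries changed. Which scaling suits these libraries was not tested. The leukocyte share was 0.226% with all reads in the denominator, by construction, and ran from 0.611% to 0.797% with either replicate left out. Detected genes numbered 5 with reads on either strand, without Mir142, and 7 at a minimum of 1 count. At this depth Mir146b cannot be ordered between the libraries. No paired analysis was possible because the labels give a single group.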
